A study of Mus musculus with 50 samples.

Results

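The miR-148 and miR-152 family in mouse blood serum was followed through its 4 listed mature miRNAs, mmu-miR-148a-3p, mmu-miR-148a-5p, mmu-miR-148b-3p and mmu-miR-152-3p, written below without the species prefix. They were chosen by name, as 4 of the 1892 entries of a table of miRNA counts in which 925 entries held a count. The table came from a study of 2 mouse models of stroke, with small RNA sequenced from 5 serum libraries in each of 5 groups of C57BL/6 mice, whose age is given as 8 to 12 weeks. In the MCAO group the left middle cerebral artery was blocked by a filament for 30 min and reperfused for 150 min before the blood draw, and the MCAO_Sham group had sham surgery. In the ICH group 20 µL of the animal's own blood was put into the striatum as a model of brain haemorrhage, and ICH_Sham mice had the needle placed with nothing injected. Naïve mice were untreated. Nothing in the labels ties a library to its own animal, so the p-values weigh differences against a spread among libraries that may be technical only.

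The family takes its name from 3 hairpins whose 3p arms carry the same seed, the bases at the 5′ end of a miRNA that pair with target mRNAs. Because target choice leans mostly on the seed, the 3p members are expected to share many targets, and the DNA methyltransferase Dnmt1 is a known one. In mouse liver, where miR-148a is abundant, it represses the cholesterol transporter Abca1. Serum miRNAs are released by many tissues and by blood cells, so more releasing cells and more miRNA released per cell cannot be told apart here.

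The mature sequences show how close the members are, and they are given with the seed (bases 2 to 8) in capitals, from RefSeq on build GRCm38.p6.
miR-148a-3p: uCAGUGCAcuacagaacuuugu
miR-148b-3p: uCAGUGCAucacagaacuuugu
miR-152-3p: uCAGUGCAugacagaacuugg
miR-148a-5p: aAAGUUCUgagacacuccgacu
The 3p members shared the seed, and no other mature miRNA in the sequence table carried it. Counted from the 5′ end, miR-148a-3p differed from miR-148b-3p at 2 of 22 positions (C9U and U10C) and from miR-152-3p at 3 of 21 (C9U, U10G and U20G). How the authors' counting treated reads that match more than one of these sequences is not given in the sources used here, so a small exchange of reads between the 3p members cannot be told from their own signal. The 5p member has another seed, which in the table it shared with miR-148b-5p alone.

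The 3 hairpins lie on different chromosomes. Mir148a is on the minus strand at chr6:51269812-51269910 in GRCm38.p6, overlaps no protein-coding gene, and is 162760 bases from the nearest one annotated, Nfe2l3. Mir148b (chr15:103285125-103285221, plus strand) lies in an intron of Copz1 and Mir152 (chr11:96850393-96850465, plus strand) in an intron of Copz2, both on the strand of the host gene. The hosts encode paralogous subunits of the COPI coat of transport vesicles. The Mir148a hairpin is shown because both of its arms are members, with the 5p and then the 3p arm in capitals.
Mir148a hairpin: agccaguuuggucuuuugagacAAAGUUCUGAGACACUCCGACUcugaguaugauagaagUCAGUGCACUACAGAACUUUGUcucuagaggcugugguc

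Library totals ran from 38393 to 315646 counts, and both ends matter for the family. The deepest library, MCAO II, also held the highest level of every member after the scaling described next, and the Naïve libraries (38393 to 83564 counts) included the shallowest. Levels are relative to the other miRNAs of a library. A synthetic spike-in was not among the entries used here, so no amount per volume of serum can be derived. Levels are given in CPM (counts-per-million), on library totals multiplied by TMM factors (trimmed mean of M values), which offset a few dominant miRNAs. MCAO II had the lowest such factor of the 25 libraries, 0.634, so its CPM values stood above its plain shares of counts. By plain share miR-152-3p was highest in an ICH library, at 0.240% of counts. The labels also give each library an index tag number and do not say that these numbers mark a batch. For an alternative fit they were split here into a lower and an upper range, which the MCAO, MCAO_Sham and Naïve libraries fill, while all ICH and ICH_Sham libraries hold the numbers between. The limit between these and the upper range follows the groups and no gap in the numbers, since the last ICH_Sham number is followed directly by that of MCAO I. Tag number and group cannot be told apart for ICH or ICH_Sham against Naïve. The reads carry no molecular identifiers, so the intervals given for shares cover counting error only.

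miR-148a-3p was the most abundant miRNA of the whole table. It held 367890 counts, 13.7% of all counts, ahead of miR-122-5p with 8.66%, miR-99a-5p with 5.49%, miR-10b-5p with 5.16% and miR-143-3p with 4.41%. It ranked first in 14 of 25 libraries and no lower than 6 in any. Those 14 were 4 libraries each of MCAO, MCAO_Sham and ICH, 2 of ICH_Sham and none of Naïve. The other 3 members were far scarcer, at rank 69 overall for miR-152-3p (4260 counts), 76 for miR-148b-3p (3308 counts) and 138 for miR-148a-5p (608 counts). The members are 21 or 22 bases long, so their counts can be set side by side without a length correction.

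Together the 4 members took 21.1% ± 13.7 of the counts in MCAO libraries, 10.4% ± 3.29 in ICH, 9.39% ± 2.76 in MCAO_Sham, 7.70% ± 1.02 in ICH_Sham and 5.50% ± 1.65 in Naïve (SD, n = 5 each). Among MCAO libraries the share was 20.1% in I, 43.9% in II, 19.8% in III, 13.7% in IV and 8.14% in V. MCAO II stood apart with nearly every second count from the family (exact 95% interval 43.7% to 44.1%), while MCAO V lay within the range of the shams. The MCAO_Sham libraries I, II, IV, V and VII held 10.8%, 13.6%, 8.17%, 7.60% and 6.85%. ICH I to V held 15.3%, 11.6%, 8.01%, 9.89% and 6.98%, and ICH_Sham I to V held 6.995%, 9.06%, 6.44%, 7.81% and 8.17%. The Naïve libraries I to V held 4.79%, 6.35%, 7.98%, 4.03% and 4.36%, which all MCAO libraries exceeded, MCAO V by little, and with which the other operated groups overlapped. No exact 95% interval of a library was wider than 0.539 percentage points, so counting error was small against the spread between libraries. miR-148a-3p made up 96.5% to 97.9% of the family on average in each group.

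**Figure D1:**
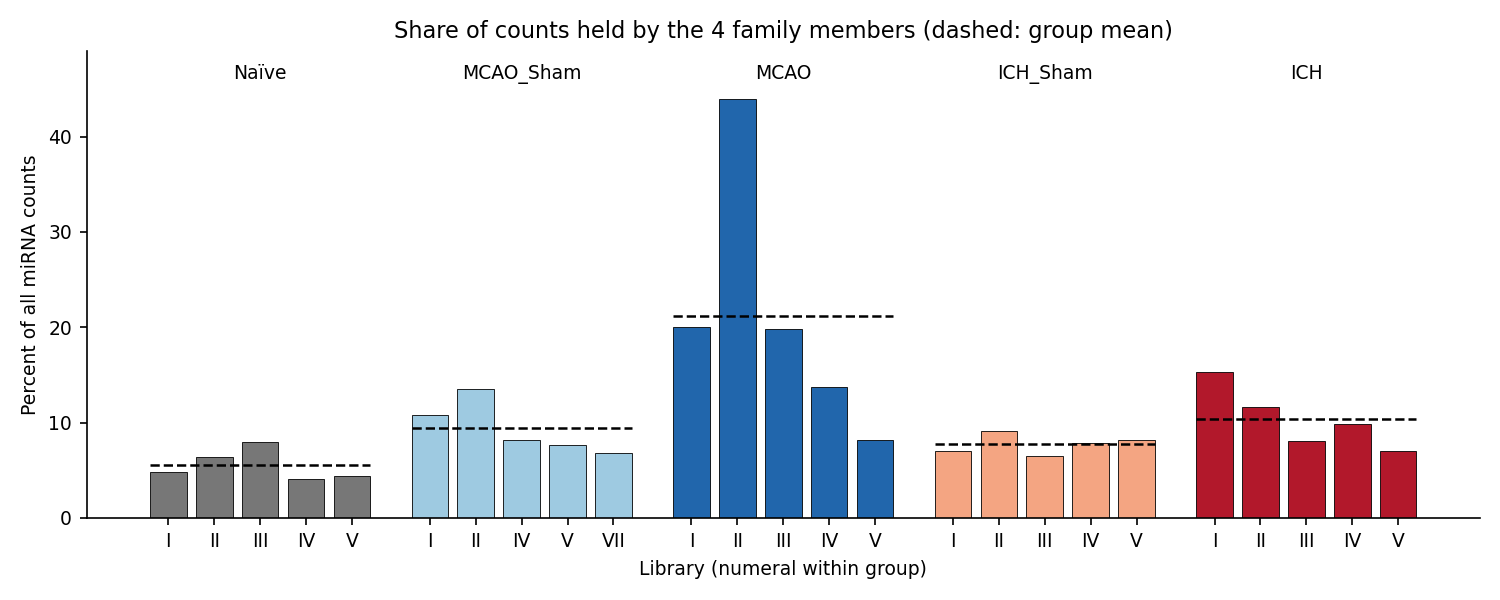
Percent of all miRNA counts held by the 4 family members (y axis) in each of the 25 libraries (x axis, numeral within group), with dashed lines at the group means. MCAO II reaches 43.9%, and the Naïve libraries lie between 4.03% and 7.98%.

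miR-148a-3p, the dominant member, held a higher relative level in MCAO serum than in MCAO_Sham serum. Its level was 209260 CPM in MCAO I, 687119 in II, 194456 in III, 133087 in IV and 72741 in V. In MCAO_Sham it was 99539 CPM in I, 126219 in II, 72836 in IV, 71919 in V and 63352 in VII. Of the 5 MCAO libraries 4 lay above every sham library and MCAO V lay among the shams, so the groups overlapped. Log2 fold changes, and differences between them, are given ± the standard error of the fit, which is not an SD among libraries. The log2 fold change was 1.58 ± 0.41 (fold 2.99), the fifth largest of all miRNAs tested. It passed at adjusted p = 0.0162 by edgeR's quasi-likelihood test and the Benjamini-Hochberg method over 199 miRNAs. It rested on MCAO II: without that library it was 0.79 and the call ended (adjusted p = 0.185). The call also ended with no count filter (adjusted p = 0.0572) and with only these 10 libraries in the fit (adjusted p = 0.0855).

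miR-148a-5p, the opposite arm of the same hairpin, was also higher, by 1.45 ± 0.40 (adjusted p = 0.0187, same test). It held 235, 1077, 399, 289 and 139.9 CPM in MCAO I to V, from 29, 52, 35 and 11 counts in I, III, IV and V and many more in II. The shams I, II, IV, V and VII held 133.2, 259, 111, 189.8 and 138 CPM, from 8, 22, 22, 10 and 13 counts. MCAO V again fell inside the sham range, and so did MCAO I, while the other 3 lay above it. Without MCAO II the difference was 0.72 (adjusted p = 0.242). The call also ended without MCAO_Sham I (1.43, adjusted p = 0.0547) and without MCAO_Sham VII (1.38, adjusted p = 0.0574).

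The members from the other hairpins did not pass the test in this comparison. miR-148b-3p, from the Copz1 intron, held 1648, 3262, 1619, 1446 and 750.4 CPM in MCAO I to V and 1049, 848, 1154, 1082 and 762 CPM in the shams. Its log2 fold change was 0.84 ± 0.30 (edgeR's quasi-likelihood test, adjusted p = 0.0578), with 4 MCAO libraries above all shams and MCAO V below all of them. miR-152-3p, from the Copz2 intron, held 2159, 3267, 1749, 2108 and 1145 CPM in MCAO I to V, and 1232, 1755, 1174, 854 and 1090.3 CPM in the shams. Its log2 fold change was 0.77 ± 0.26 (adjusted p = 0.0517), and 3 MCAO libraries lay above all shams. In all, 2 of the 4 members passed, where 7.54% of the 199 miRNAs tested did so (15 miRNAs). The count was 4 with DESeq2 and 0 without MCAO II, 1 without MCAO_Sham I or VII, and 4 without MCAO V, ICH I or Naïve II.

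Several measures moved together with the MCAO result, and their part in it was not tested. Within the lower index tag range miR-148a-3p was 1.94 higher on the log2 scale in 3 MCAO than in 2 MCAO_Sham libraries, and within the upper range 0.35 higher in 2 than in 3. For miR-152-3p these differences were 1.02 and 0.36, and for miR-148b-3p 1.07 and 0.17. For miR-148a-5p they were 2.01 and -0.044, so in the upper range it was not higher in MCAO. MCAO II is among the 3 libraries of the lower range. With the tag range in the fit, as a term over MCAO, MCAO_Sham and Naïve alone, the log2 fold change of miR-148a-3p was 1.57 (adjusted p = 0.0876) and none of the 4 members passed. The log2 ratio miR-451a over miR-23a-3p, in use as an index of haemolysis, was -0.68 ± 0.69 in MCAO and -1.59 ± 1.03 in MCAO_Sham (SD, n = 5 each), and as a covariate it brought the log2 fold change of miR-148a-3p to 1.04 (adjusted p = 0.262). The 3 miRNAs of the erythrocyte list had a mean summed share of 2.48% in MCAO and 4.53% in MCAO_Sham. That sum is mostly the entry of miR-486-5p and miR-3107-5p, with 65640 counts over all libraries. miR-451a had 14827 and miR-144-3p 231. Of these, miR-451a itself differed by 0.30 on the log2 scale (adjusted p = 0.497) and the entry of miR-486-5p and miR-3107-5p fell by 0.98 (adjusted p = 0.0187, edgeR's quasi-likelihood test). miR-144-3p, also of that list, differed by 0.15 (adjusted p = 0.792, same test). miR-23a-3p, by which the ratio divides, differed by -0.34 (adjusted p = 0.266, same test). The part of red cell content in the covariate was not tested.

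Markers of epithelial cells, 5 miRNAs of the miR-200 family, were also higher in MCAO, and their part in the result was not tested. Their summed share ran from 0.720% to 3.03% of counts in MCAO libraries, from 0.543% to 1.64% in MCAO_Sham, from 0.540% to 1.0004% in ICH, from 0.659% to 0.933% in ICH_Sham and from 0.362% to 1.08% in Naïve. The highest MCAO share, 3.03%, was that of MCAO II, and the MCAO median was 2.29%. Of these 5 markers 3 passed as higher against MCAO_Sham and 5 against Naïve, where 7.54% and 30.7% of the 199 miRNAs passed in either direction. The liver marker miR-122-5p took 2.19% to 9.03% of counts in MCAO and 2.29% to 10.5% in MCAO_Sham, and did not pass in either comparison of MCAO. The 3 erythrocyte miRNAs together took 1.23% to 3.48% in MCAO and 2.58% to 6.75% in MCAO_Sham, and 1 of the 3 passed as lower against MCAO_Sham. The 3 muscle miRNAs took 2.19% to 6.12% and 1.85% to 4.44%, with 1 of 3 higher. In the pancreas list miR-216a-5p was at 0 in 22 of 25 libraries and miR-217-5p in 7, while miR-375-3p had counts in all, and the list passed in neither comparison of MCAO. The gut list (0.810% to 2.02% of counts in MCAO, 0.996% to 2.10% in MCAO_Sham) and the myeloid and platelet list (0.0431% to 0.108% and 0.0643% to 0.123%) held no miRNA that passed in them.

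After intracerebral haemorrhage no member passed against its own sham. miR-148a-3p held 177222, 111509, 70422, 85992 and 63189 CPM in ICH I to V, and 93900.4, 84278, 58383, 66963 and 69531 CPM in ICH_Sham I to V. ICH I and II lay above every sham and the other 3 among them, with a log2 fold change of 0.45 (95% interval -0.38 to 1.27, edgeR's quasi-likelihood test, adjusted p = 0.682). miR-148a-5p differed by 0.12 (interval -0.76 to 1.001), from 80.6 to 249.8 CPM in ICH and 89.2 to 166 CPM in ICH_Sham. miR-148b-3p differed by 0.40 (-0.21 to 1.02), with levels of 703 to 2319 and 794 to 1153 CPM. miR-152-3p differed by 0.38 (-0.14 to 0.90), and 4 of its 5 ICH libraries lay above all shams. Here 0 of the 4 members and 0% of the 199 miRNAs passed; 20 miRNAs had an unadjusted p under 0.05, and DESeq2, limma voom and edgeR each called no miRNA at all.

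The effects of the stroke models over their shams were not shown to differ for any member. The MCAO effect minus the ICH effect was 1.13 ± 0.57 for miR-148a-3p (adjusted p = 0.301, edgeR's quasi-likelihood test on the interaction) and 1.33 ± 0.59 for miR-148a-5p (adjusted p = 0.288). For miR-148b-3p and miR-152-3p it was 0.44 ± 0.43 and 0.40 ± 0.36. None of the 4 passed, and 1.01% of the 199 miRNAs did. The intervals were wide, from -0.04 to 2.30 for miR-148a-3p and from 0.12 to 2.53 for miR-148a-5p.

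**Figure D2:**
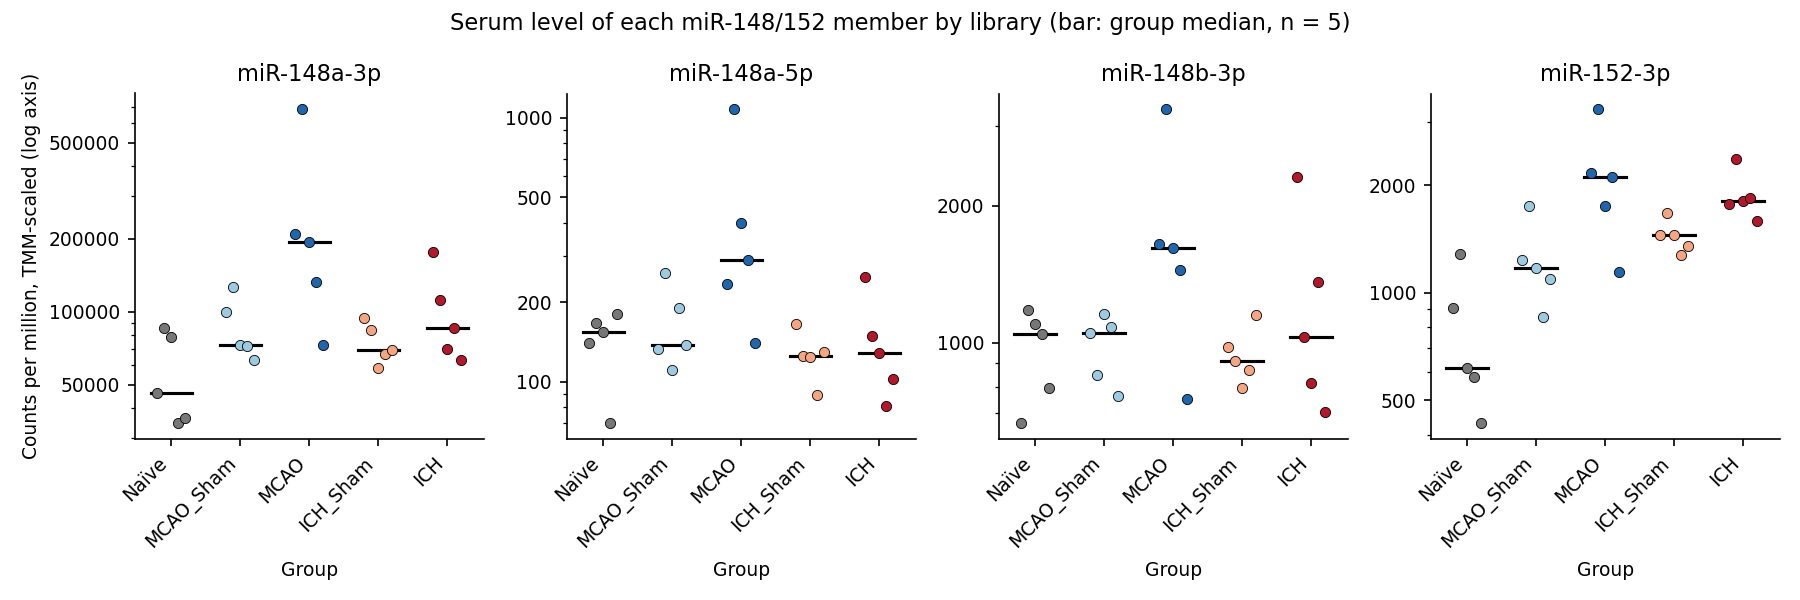
Level of each member (CPM on TMM-scaled totals, log axis) in every library, by group, with bars at the group medians (n = 5 each). MCAO II is the highest library in all 4 panels, and for miR-152-3p no ICH library falls into the Naïve range.

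Untreated mice had the lowest mean level of miR-152-3p and of miR-148a-3p. miR-152-3p held 907, 1280.3, 615, 580 and 431 CPM in Naïve I to V, from 71, 77, 24, 25 and 19 counts. In ICH it held 1769, 2375, 1807, 1848 and 1587 CPM, and in ICH_Sham 1454, 1678, 1455, 1279 and 1353 CPM. Every ICH library lay above every Naïve library, and of the ICH_Sham libraries only IV, at 1279 CPM, did not lie above Naïve II. miR-152-3p passed as higher in MCAO by 1.43 ± 0.27 (adjusted p = 0.000373), in ICH by 1.28 ± 0.27 (adjusted p = 0.00119) and in ICH_Sham by 0.90 ± 0.27 (adjusted p = 0.0349, all by edgeR's quasi-likelihood test). In MCAO_Sham it was 0.66 ± 0.27 higher (adjusted p = 0.323). Over the mean of the 4 operated groups it was 1.07 ± 0.23 higher (adjusted p = 0.00231). These comparisons share the 5 Naïve libraries.

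The differences of miR-152-3p from Naïve in MCAO, in ICH and over the operated groups passed under every alternative that gave a value and without each library in turn. That in ICH_Sham ended without ICH_Sham I or II or without Naïve III, IV or V, with adjusted p from 0.0613 to 0.134 and log2 fold changes from 0.81 to 0.92. The lymphocyte list stood the other way, at 0.561% to 2.15% of counts in Naïve, 0.194% to 0.692% in MCAO, 0.452% to 0.995% in MCAO_Sham, 0.290% to 0.498% in ICH and 0.479% to 0.755% in ICH_Sham. Of its 3 miRNAs 2 were tested, and 1 passed as lower against Naïve in each of the 4 operated groups and over their mean. The erythrocyte list took 2.92% to 8.18% of counts in Naïve, 1.84% to 2.84% in ICH and 1.59% to 4.34% in ICH_Sham, and 1 of its 3 miRNAs passed as lower in MCAO, in ICH, in ICH_Sham and over the operated groups. The muscle list lay above its Naïve range in all ICH_Sham libraries and overlapped it in ICH, at 1.60% to 3.17% in Naïve, 2.43% to 7.35% in ICH and 3.98% to 6.69% in ICH_Sham, with 1 of its 3 miRNAs passing as higher in the same 4 comparisons. In MCAO_Sham no miRNA of the erythrocyte or the muscle list passed against Naïve. Of all 199 miRNAs 30.7% passed against Naïve in MCAO, 14.6% in ICH, 6.53% in ICH_Sham, 0.503% in MCAO_Sham and 8.54% over the operated groups. A count of 1 of 3 in MCAO is thus near the share over all miRNAs. The part of these lists in the results was not tested. Library totals were also lowest in Naïve, and with all libraries thinned to 38393 counts the calls of miR-152-3p in MCAO, ICH and ICH_Sham held. Thinning evens out the number of counts alone. Whatever else may go with the low totals of Naïve libraries was not tested.

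miR-148a-3p held 46233, 85566, 78362, 34570 and 36508 CPM in Naïve I to V, so that Naïve II and III reached into the range of every operated group. Against Naïve it was higher by 2.20 ± 0.42 in MCAO (fold 4.61, edgeR's quasi-likelihood test, adjusted p = 0.000471) and by 1.41 without MCAO II, where the call held (adjusted p = 0.00402). The other log2 fold changes did not pass, at 0.85 ± 0.41 in ICH (adjusted p = 0.155), 0.63 ± 0.40 in MCAO_Sham (adjusted p = 0.537) and 0.41 ± 0.40 in ICH_Sham (adjusted p = 0.614). Over the 4 operated groups it was 1.02 ± 0.34 higher (adjusted p = 0.0537).

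miR-148a-5p and miR-148b-3p were higher than Naïve in MCAO, by 1.62 ± 0.43 (adjusted p = 0.00842) and 0.88 ± 0.31 (adjusted p = 0.0323, edgeR's quasi-likelihood test). miR-148a-5p held 140.6, 166, 154, 69.6 and 181 CPM in Naïve I to V, where Naïve IV rested on 3 counts. miR-148b-3p held 664, 1181, 1102, 1043 and 793 CPM. In each case 4 MCAO libraries lay above all Naïve libraries and MCAO V among them. Without MCAO II the log2 fold changes were 0.86 (adjusted p = 0.0931) and 0.49 (adjusted p = 0.225), and both calls ended. That of miR-148b-3p also ended without MCAO I or III or Naïve I, IV or V, with adjusted p from 0.0505 to 0.0855. In the other groups neither member passed against Naïve, and their log2 fold changes lay between -0.16 and 0.38. By index tag range, miR-148a-5p stood 1.83 (lower) and 0.44 (upper) higher in MCAO than in Naïve on the log2 scale. For miR-148b-3p these differences were 1.57 and 0.13, for miR-148a-3p 2.50 and 1.19, and for miR-152-3p 1.34 and 1.24. The lower range held 3 MCAO libraries, MCAO II among them, and 1 Naïve library, and the upper range 2 and 4. The part of the tag range was not tested.

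Counted by comparison with Naïve, 4 of the 4 members passed in MCAO, where 30.7% of the 199 miRNAs did. In ICH 1 of 4 passed against 14.6% of all, in ICH_Sham 1 of 4 against 6.53%, in MCAO_Sham 0 of 4 against 0.503%, and over the operated groups 1 of 4 against 8.54%. Every member that passed in any of these was higher than in Naïve. In MCAO_Sham against Naïve 18 of the 199 miRNAs had an unadjusted p under 0.05, miR-152-3p (p = 0.0202) among them.

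**Figure D3:**
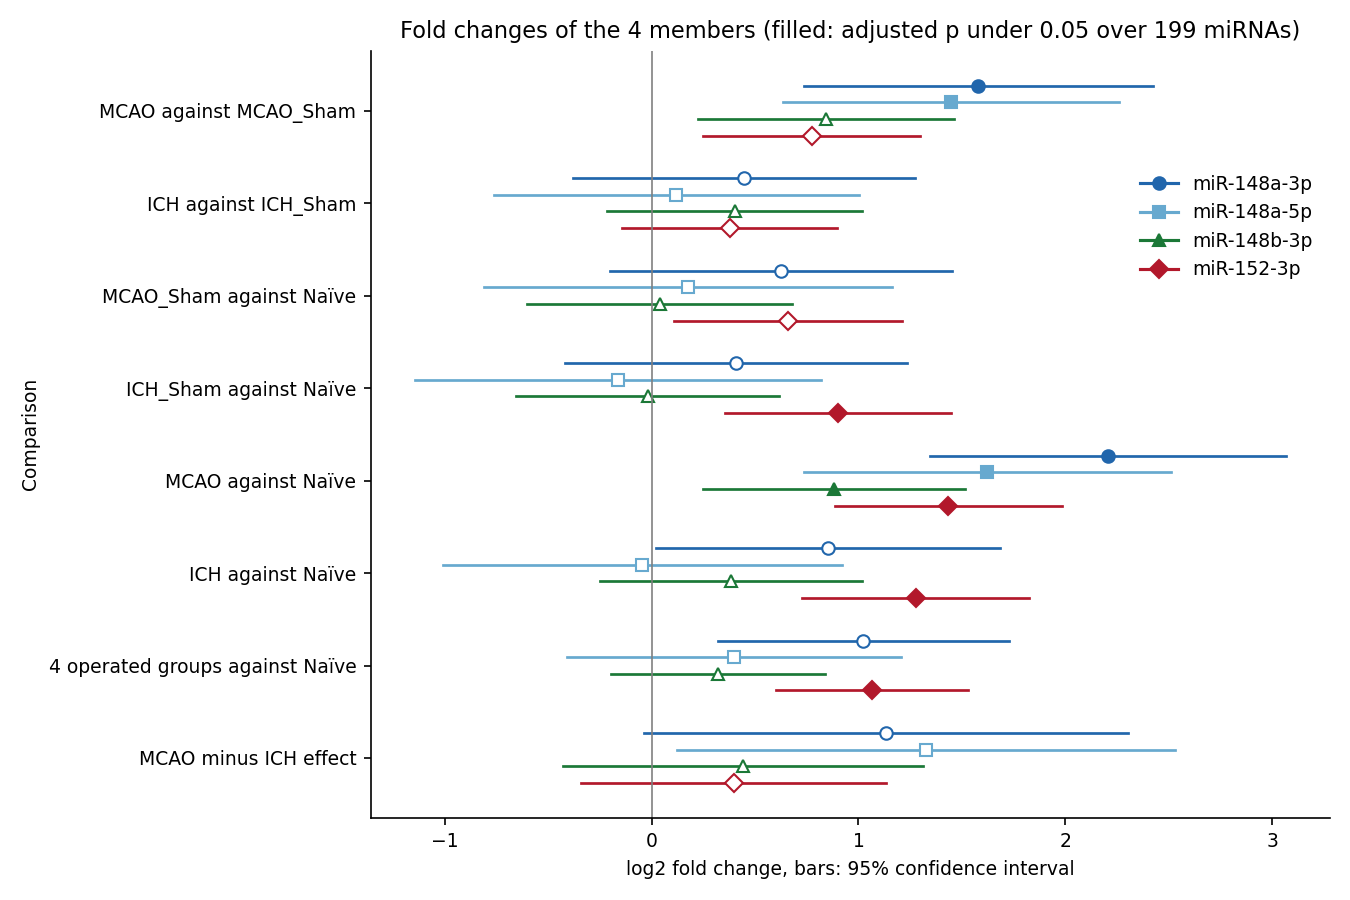
log2 fold changes of the 4 members (x axis, with 95% confidence intervals) in the 8 comparisons (y axis), filled where the adjusted p was under 0.05. miR-152-3p is filled in 4 of the comparisons with Naïve and miR-148a-3p in 1, and the lowest row is the difference between the 2 stroke models.

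By mean CPM, the groups were ordered MCAO, ICH, MCAO_Sham, ICH_Sham, Naïve for miR-148a-3p and MCAO, ICH, ICH_Sham, MCAO_Sham, Naïve for miR-152-3p. MCAO also led for miR-148a-5p and miR-148b-3p, where Naïve lay above ICH_Sham. Neighbouring groups in these orders overlapped for every member. Only 2 of the steps were larger than the larger SD of the groups beside them, both for miR-152-3p: ICH over ICH_Sham (0.37 against an SD of 0.21, log2 CPM) and MCAO_Sham over Naïve (0.75 against 0.61). The members also differed in spread, with a biological coefficient of variation from edgeR of 0.438 for miR-148a-3p and 0.272 for miR-152-3p, against 0.297 in common over all miRNAs tested.

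Whether the members moved by different amounts was tested on their ratios to miR-148a-3p within a library, which do not depend on the scaling. miR-148a-5p came to 0.278% ± 0.130 of miR-148a-3p in Naïve, 0.194% ± 0.0522 in MCAO_Sham, 0.177% ± 0.0425 in MCAO, 0.171% ± 0.0312 in ICH_Sham and 0.143% ± 0.0336 in ICH (SD, n = 5 each). miR-148b-3p came to 1.88% ± 0.716 in Naïve and 0.843% ± 0.242 in MCAO, with 1.204% to 1.29% in the other groups. miR-152-3p came to 1.42% ± 0.455 in Naïve, 1.43% ± 0.232 in MCAO_Sham, 1.11% ± 0.472 in MCAO, 1.98% ± 0.337 in ICH_Sham and 2.07% ± 0.632 in ICH.

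No ratio passed over the 18 tests. The smallest p of an exact two-sided permutation test of 5 against 5 libraries is 0.00794, and it was reached by miR-148b-3p in MCAO against Naïve (log2 difference -1.15) and by miR-148a-5p in ICH against Naïve (-0.96), where the groups did not overlap (adjusted p = 0.0714 each). Below 0.05 before adjustment, 4 of the 18 tests stood. For miR-152-3p the log2 difference of the ratio was -0.48 in MCAO against MCAO_Sham (exact permutation p = 0.175), 0.01 in ICH against ICH_Sham (p = 0.992) and 0.52 in ICH against Naïve (p = 0.151). With 5 libraries a group this family of tests could hardly pass: a single ratio at the smallest p adjusts to 0.143, and at least 3 of the 18 would have to reach that p for an adjusted p under 0.05. Whether the members responded differently was therefore not settled by these tests. miR-152-3p counts exceeded those of miR-148b-3p in 18 of the 20 operated libraries and in 2 of the 5 Naïve ones.

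**Figure D4:**
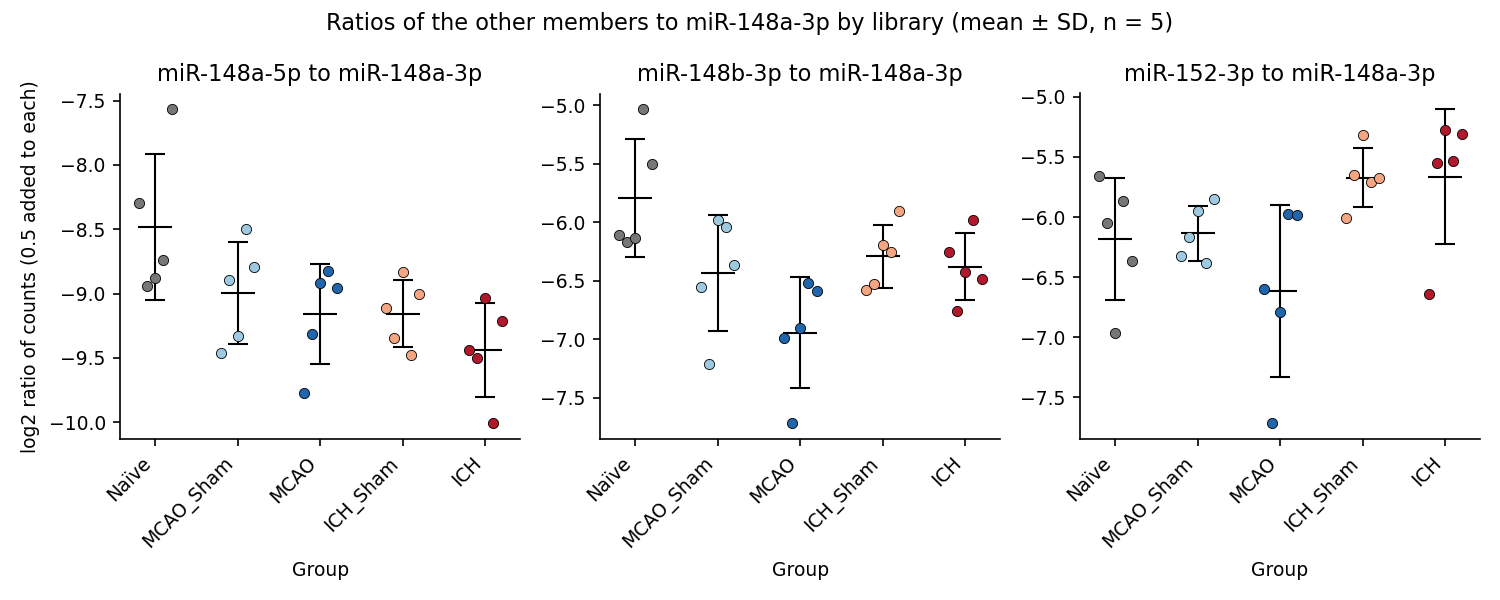
log2 ratio of the counts of each other member to miR-148a-3p (y axis, 0.5 added to each count) by library and group, with mean and SD (n = 5 each). All Naïve libraries lie above all ICH libraries for miR-148a-5p and above all MCAO libraries for miR-148b-3p.

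The remaining arms of the hairpins were near the limit of detection and did not pass the filter on low counts. miR-148b-5p had 110 counts over all libraries and 0 to 75.9 CPM in any one, and miR-152-5p had 83 counts and 0 to 90.2 CPM. A list of 5 miRNAs whose seed is shifted by a base, the family of miR-130 and miR-301, was as scarce, with 139 counts of miR-130a-3p, 57 of miR-130b-3p, 6 of miR-301a-3p, 1 of miR-301b-3p and 0 of miR-721. None of the 5 was tested.

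miR-148b-3p and miR-152-3p were among the miRNAs whose levels followed miR-148a-3p most closely over the 25 libraries. By Spearman's correlation of log2 CPM the 8 highest of 198 were miR-30a-5p (0.86), miR-218-5p (0.83), miR-27b-3p (0.78), miR-148b-3p (0.73), miR-101a-3p (0.73), miR-200a-5p (0.72), miR-152-3p (0.72) and miR-200a-3p (0.72). For miR-148a-5p it was 0.65, at rank 15 and level with miR-29a-3p. With the group means taken out, these became 0.61 for miR-30a-5p, 0.70 for miR-218-5p, 0.84 for miR-27b-3p, 0.61 for miR-148b-3p, 0.71 for miR-101a-3p, 0.73 for miR-200a-5p, 0.60 for miR-152-3p and 0.42 for miR-200a-3p, with 0.63 for miR-148a-5p. The lowest were let-7d-3p (-0.91), miR-125a-5p (-0.86) and miR-125b-5p (-0.82). These values are descriptions, since the points share library depth and a scaling factor that a miRNA of this abundance affects, and the median over the 198 miRNAs was 0.08. miR-148b-3p and miR-152-3p followed each other less, at 0.46, and 0.20 with the group means taken out.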

How the data were processed

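Small RNA of mouse serum was measured in 25 libraries of 5 groups. The authors deposited whole-number counts per mature miRNA, not normalized, in 50 columns, 2 runs for each library, which carry the same index tag per the labels. The submitters' processing notes name Bowtie 0.12.9. The genome build, annotation release and handling of ambiguous reads were not given in the sources used here. Per the labels' protocols, RNA came from 200 µL of serum with a synthetic spike-in, which was not among the entries used here.

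Runs were summed, since their counts agreed within sampling noise (chi-square of 0.792 to 1.27 for each degree of freedom, on miRNAs reaching 20 counts). Library totals were 38393 to 315646. edgeR 4.0.16 in R 4.3.3 kept 199 miRNAs (filterByExpr, minimum count 10, 99.5% of counts), scaled by TMM, fitted all groups together and tested with the robust quasi-likelihood test, with Benjamini-Hochberg adjustment over the 199 and a threshold of 0.05. The fit was tested on data simulated with the same spread for every miRNA and no outlying library. That test therefore does not cover calls that rest on MCAO II. CPM use the TMM-scaled totals, and log2 CPM a prior count of 2. Ratios between members (0.5 added to each count) were compared by exact permutation tests (SciPy 1.17.1), adjusted over 18. Shares have exact Clopper-Pearson intervals at 95%.

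The members and lists were chosen with earlier results of these data known. Named miRNAs were the members, the other arms, the 5 most abundant, the 8 highest and 3 lowest correlations with miR-148a-3p, seed relatives and marker lists. Alternatives used DESeq2 1.42.0, limma 3.58.1, other scalings and filters, single runs, thinned counts, blocks, covariates and each library left out.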

Additional observations from a re-analysis of the deposited data

Results flagged for a closer look

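The library MCAO II stood apart from the other 4 MCAO libraries in miR-148a-3p (687119 CPM), in miR-148a-5p (1077 CPM) and in the family as a whole (694726 CPM), with a gap to the next library of 0.778, 0.724 and 0.777 of the group's range. Its miR-148a-3p level was 3.28 times that of MCAO I, the next highest. ICH I stood apart in the log2 ratio of miR-152-3p to miR-148a-3p, at -6.64, with a gap of 0.802 of the range. A gap above 0.71 of the range of 5 libraries flags about 1 in 20 groups by chance, and 65 sets of 5 values were examined, many of them related, of which 4 were flagged. Plain shares of counts were among the sets, and no library, MCAO II included, was flagged in them. The MCAO II values were alike in its repeat runs, where miR-148a-3p took 43.3% and 43.6% of the counts. These runs are of the same library, so their likeness covers the sequencing alone.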

How the results depend on the processing

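The miR-451a covariate named below is the log2 ratio of miR-451a over miR-23a-3p, not miR-451a alone. For MCAO against MCAO_Sham, the log2 fold change of miR-148a-3p no longer passed with no count filter (1.76), with only the groups compared (1.56), with a block for the index tag range (1.57) and with the miR-451a covariate (1.04), and it lay between 0.79 and 1.82 with 1 library left out. That of miR-152-3p came to pass with normalization without the members (0.78), no count filter (0.90), DESeq2 (0.77), limma voom (0.74), run R1 alone (0.82) and the miR-122-5p covariate (0.78), and lay between 0.53 and 0.93 with 1 library left out. The members called were 4 with DESeq2, 1 with library totals alone and 0 with the tag block, the miR-451a covariate or only the groups compared, and 0 to 4 with 1 library left out. All miRNAs called were 15, 2 to 42 under the alternatives and 2 to 55 with 1 library left out. Against Naïve in MCAO, 2 members were called with the tag block, the miR-451a covariate or only the groups compared, and 2 to 4 with 1 library left out. In ICH_Sham 0 to 1 were called, with miR-152-3p between 0.81 and 1.17. Over the operated groups miR-148a-3p came to pass with library totals (1.04), DESeq2 (1.02), limma voom (0.98), R1 (1.09), R2 (1.04), thinning (1.05) and the miR-451a covariate (1.12), which made 2 members called, and lay between 0.83 and 1.22 with 1 library left out (1 to 2 called). The cause was not tested. Of the log2 fold changes of members with 1 library left out, 737 kept their direction and side of the threshold, 16 lost and 16 gained the call, and 31 changed sign. That tally includes the removal of libraries from groups outside a comparison. Such libraries act on it only through the filter, the scaling and the shared spread, so the tally does not measure how stable a call is. Depth limits miR-148a-5p most, with as few as 3 counts in a library.

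The replicate block, by the numeral in the labels, gave 1.25 for miR-148a-3p in MCAO against MCAO_Sham, and made miR-152-3p pass there (0.74) and miR-148a-3p over the operated groups (1.02). Same-numbered libraries did not deviate together throughout (correlations from -0.28 to 0.37), so the numerals were not read as pairing.

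Some values that did not pass, most of them near 0, changed sign under some alternatives and passed under none of them. For miR-148b-3p in ICH_Sham against Naïve the log2 fold change became 0.038 with library totals, 0.0098 with normalization without the members, 0.075 with no filter, 0.0026 with only the groups compared, 0.14 with R1, 0.049 with thinning, 0.00033 with the replicate block, 0.0082 with the miR-122-5p covariate and 0.20 with the miR-451a covariate, and -0.065 to 0.078 with 1 library left out. In MCAO_Sham against Naïve it became -0.0014 with only the groups compared, -0.035 with R2, -0.0022 with the tag block and -0.0052 with the miR-122-5p covariate, and -0.052 to 0.15 with 1 library left out. Its interaction, which was not near 0 in the main fit (0.44), became -0.0068 with the miR-451a covariate. For miR-148a-5p in ICH against Naïve it became 0.013 with library totals, 0.082 with no filter, 0.012 with the replicate block and 0.29 with the miR-451a covariate, and -0.35 to 0.11 with 1 library left out. In ICH against ICH_Sham it became -0.079 with R2 and -0.074 with the miR-122-5p covariate (-0.19 to 0.27 with 1 library left out), and in ICH_Sham against Naïve 0.029 with R2 and 0.10 with the miR-451a covariate. In MCAO_Sham against Naïve it was -0.081 to 0.33 with 1 library left out. Among log2 ratios, miR-152-3p to miR-148a-3p became -0.090 in ICH against ICH_Sham (-0.088 to 0.25 with 1 library left out) and -0.00016 in MCAO_Sham against Naïve (-0.15 to 0.18) with R1, and with R2 miR-148a-5p to miR-148a-3p became 0.095 in MCAO against MCAO_Sham and miR-148b-3p to miR-148a-3p 0.024 in ICH against ICH_Sham (-0.19 to 0.0086). Without miR-122-5p in the total, the family share of ICH_Sham was 8.86%, the only group mean moved by more than its SD.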
